A study of Mus musculus with 9 samples.

Results

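The miR-200 family was followed through serum small RNA libraries made with and without depletion of 5′ tRNA-half fragments. Its members were chosen as the 3p strands of miR-200b (MIMAT0000233), miR-200a (MIMAT0000519), miR-429 (MIMAT0001537), miR-200c (MIMAT0000657) and miR-141 (MIMAT0000153), by their miRBase identifiers. All 5 had counts, among 876 mature miRNAs with a count in any library. The family was chosen with its counts in these libraries already known, so its levels and fold changes are given as a description and carry no test.

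The miR-200 family is known for its expression in epithelial cells. It represses Zeb1 and Zeb2, transcription factors that switch off epithelial genes such as the cadherin gene Cdh1, and loss of the family accompanies the transition of epithelial to mesenchymal cells. A miRNA finds its targets mainly through its seed, bases 2 to 8, so members that share a seed share most predicted targets. The messenger RNAs of these targets were not measured here.

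Serum came from healthy male and female 129/SVj mice aged 2 to 9 months. The labels name 3 serum pools (A, B and C), and the RNA of each was split into 3 fractions. The beads fraction was depleted with biotinylated DNA probes against 5′ tRNA-half fragments and streptavidin beads, the RNase H fraction with the same kind of probes and an enzyme that cuts RNA paired to DNA, and the control fraction was not depleted. This gave 9 libraries, 3 in each group. The protocol describes 200 μl aliquots of serum pooled from 3 mice, so the spread between A, B and C may be technical only, and differences between single mice cannot be seen.

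The libraries held between 205185 and 330676 miRNA counts in the control group, between 1822088 and 1995956 in the beads group and between 1199 and 2040 in the RNase H group. Levels are given as CPM, counts scaled to a total of 1000000 miRNA counts in the library, and every direction is relative to this total. Relative to all annotated counts, tRNA included, all 5 members were higher in beads-depleted libraries, by ratios from 7.99 to 295.4. So were all 332 miRNAs tested relative to these counts, with a median log2 fold change of 3.37, so this rise is not particular to the family. Of the miRNAs abundant in blood cells, only miR-16-5p could be identified, with 28190 to 45427 counts in control libraries. This single miRNA cannot separate serum from other blood samples, so the serum label was not checked. No marker of epithelial cells other than the family itself was checked. For the level in serum itself, release by more cells and release of more RNA per cell cannot be told apart. The groups compared are fractions of the same RNA, so this caveat does not concern the differences between them.

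The mature sequences are shown because the family divides in different ways by seed and by position in the genome, and both divisions are used for the counts. They are from RefSeq (GRCm38.p6) and are printed 5′ to 3′, with the seed in capitals.
miR-200b-3p: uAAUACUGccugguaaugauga
miR-429-3p: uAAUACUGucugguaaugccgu
miR-200c-3p: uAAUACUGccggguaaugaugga
miR-200a-3p: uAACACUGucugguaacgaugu
miR-141-3p: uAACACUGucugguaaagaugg

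Among 1738 mature mouse miRNAs in the RefSeq table, the seed AAUACUG occurred only in miR-200b-3p, miR-429-3p and miR-200c-3p, and the seed AACACUG only in miR-200a-3p and miR-141-3p. The seeds differ at a single position (U4C from miR-200b-3p to miR-200a-3p, counted from the 5′ end). With the same counting, miR-200c-3p differs from miR-200b-3p by U11G and A22G over the 22 positions compared, and is 23 bases long. miR-141-3p differs from miR-200a-3p by C17A and U22G. Each mature sequence occurred in 1 of 1005 hairpins of the table. The authors mapped reads without mismatches and kept reads of at least 15 bases. Only miR-200a-3p and miR-141-3p share a run longer than this minimum, of 16 bases, so a read of 15 or 16 bases from it could belong to either.

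The position in the genome divides the members otherwise. Mir200b, Mir200a and Mir429 lie in this order on the minus strand of chromosome 4 (156055681 to 156055750, 156054896 to 156054985 and 156053905 to 156053987, GRCm38), a cluster that spans 1846 bases. GENCODE places them within introns of the protein-coding gene Ttll10 and within the non-coding transcript Gm13648, with Mir429 in an exon of the latter. Mir200c and Mir141 lie on the minus strand of chromosome 6 (124718322 to 124718390 and 124717914 to 124717985), within 477 bases and within an intron of the antisense transcript Gm15884. Mir141 also overlaps an exon of Gm29008. Each cluster thus holds members of both seed groups.

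In control libraries, miR-141-3p had the highest level of the family and miR-200c-3p and miR-200b-3p the lowest. miR-141-3p had 66, 125 and 78 counts in pools A, B and C, a level of 337.8 ± 35.1 CPM (SD, n = 3). miR-429-3p had 52, 80 and 65 counts (252.2 ± 9.77 CPM, SD, n = 3), and miR-200a-3p had 18, 44 and 27 (109.8 ± 22.7 CPM, SD, n = 3). The ranges of these 3 members did not overlap. miR-200b-3p had 4, 7 and 3 counts (17.6 ± 4.85 CPM, SD, n = 3) and miR-200c-3p had 3, 3 and 6 (15.9 ± 7.61 CPM, SD, n = 3). The ranges of the last pair overlapped, so their order is not resolved at this depth. All 5 are of modest abundance, and by mean level miR-141-3p ranked 94 and miR-200c-3p ranked 243 of 572 miRNAs with a control count.

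Beads depletion changed this order through miR-200c-3p. Its counts were 888, 835 and 1001 in beads-depleted pools A, B and C, a level of 476.2 ± 66.8 CPM (SD, n = 3). The lowest of these libraries, pool B, had 418.3 CPM (Wilson 95% confidence interval 390.9 to 447.7), and the highest control library, pool C, had 24.1 CPM (11.1 to 52.6). Intervals cover counting error only. The ratio of the group means was 29.9, and the ratios within pools were 31.5 in A, 46.1 in B and 22.8 in C. At the mean share of the beads-depleted libraries, the control libraries would have held 97.7, 157.5 and 118.4 counts, where 3, 3 and 6 were counted. miR-200c-3p thereby moved from rank 243 to rank 86 of 837 miRNAs with a count.

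miR-141-3p, encoded next to miR-200c, was also higher in beads-depleted libraries, by a smaller factor. It had 1019, 1114 and 1009 counts, a level of 546.9 ± 15.8 CPM (SD, n = 3), and every beads-depleted library lay above every control library. The ratio of the means was 1.62, with 1.64, 1.48 and 1.77 within pools A, B and C. Its ratio was thus far below that of miR-200c-3p in each pool.

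The chromosome 4 members did not share this. miR-429-3p had 417, 396 and 342 counts, and its level of 200.8 ± 14.5 CPM (SD, n = 3) lay below that of the control libraries in all 3 pools, with a ratio of 0.796, which was 7.99 relative to all annotated counts. miR-200a-3p had 188, 224 and 163 counts (99.8 ± 11.5 CPM, SD, n = 3), and its range overlapped that of the control libraries, with a ratio of 0.909. miR-200b-3p had 21, 36 and 33 counts (15.7 ± 4.14 CPM, SD, n = 3), and its ratio of 0.892 varied from 0.559 in pool A to 1.501 in pool C. The raw counts of these members were 5.86 to 6.46 times those of the control libraries on average, beside 7.32 times for all miRNA counts. For miR-141-3p this factor was 11.7 and for miR-200c-3p it was 227.

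**Figure D1:**
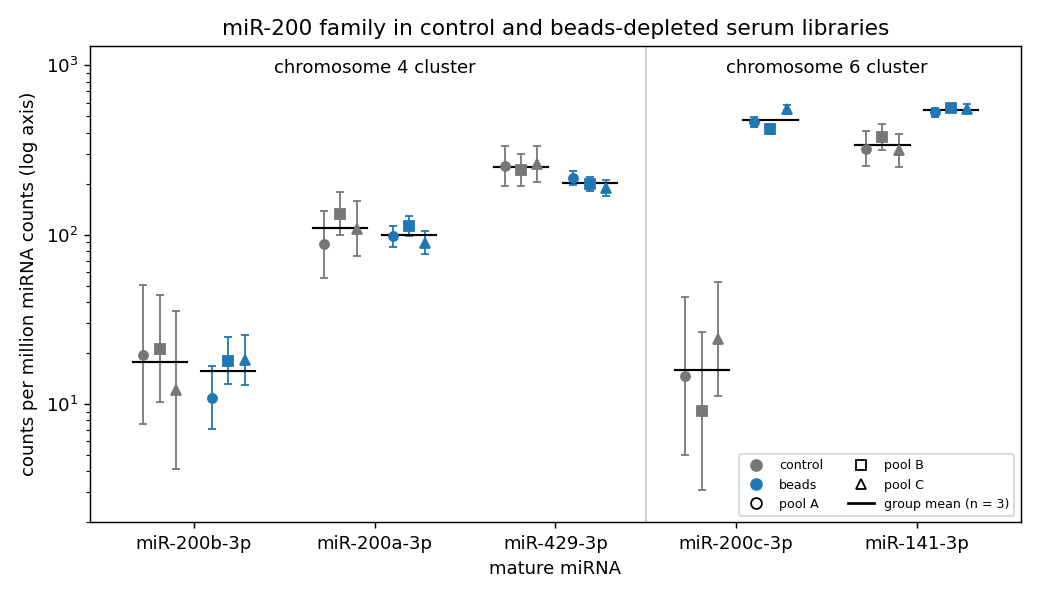
Level of each family member in CPM (log axis) in the control and beads-depleted libraries, with 1 symbol per library, its Wilson 95% interval and the mean of the 3 libraries as a bar. The miR-200c-3p symbols of the beads-depleted libraries lie between 418.3 and 549.4, far above the control libraries, while those of miR-200b-3p and miR-200a-3p overlap between groups.

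After beads depletion the order of levels was miR-141-3p, miR-200c-3p, miR-429-3p, miR-200a-3p and miR-200b-3p. The ranges of miR-141-3p (528.9 to 558.1 CPM) and miR-200c-3p (418.3 to 549.4) overlapped, and those of the other neighbours did not. Within each beads-depleted library miR-200c-3p had fewer counts than miR-141-3p, by a ratio of 0.871 ± 0.121 (SD, n = 3), beside 0.0488 ± 0.0266 (SD, n = 3) in control libraries. Each count is 1 read and the sequences are 22 or 23 bases long. Whether the library kit captured them evenly was not tested.

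Within the family, the shares of the members moved accordingly. miR-200c-3p made up 2.20% ± 1.101 (SD, n = 3) of the family counts in control and 35.5% ± 3.63 (SD, n = 3) in beads-depleted libraries. miR-429-3p made up 34.5% ± 3.15 and 15.0% ± 1.53 (SD, n = 3), and miR-200a-3p 14.9% ± 2.21 and 7.47% ± 1.102 (SD, n = 3). The share of miR-141-3p was 46.0% ± 2.35 in control and 40.9% ± 1.68 (SD, n = 3) in beads-depleted libraries, although its own level was higher in the latter. These shares add to a whole, so that a rise of miR-200c-3p lowers the others.

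**Figure D2:**
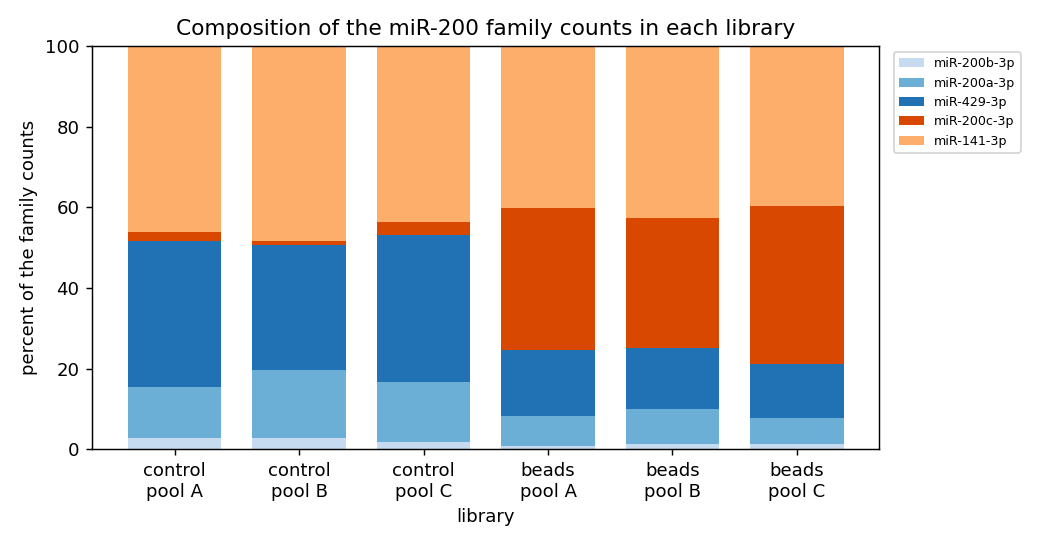
Percent of the summed counts of the 5 members that each member took in each control and beads-depleted library, as stacked bars. The miR-200c-3p segment takes 1.16% to 3.35% in control and 32.1% to 39.3% in beads-depleted libraries.

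The clusters were compared through their sums. The chromosome 4 cluster summed to 379.6 ± 17.9 CPM in control and 316.3 ± 18.3 in beads-depleted libraries (SD, n = 3), a ratio of 0.833 that lay between 0.773 and 0.901 within pools and was 8.35 relative to all annotated counts. The chromosome 6 cluster summed to 353.7 ± 28.9 and 1023 ± 69.6 CPM (SD, n = 3), a ratio of 2.89 that lay between 2.52 and 3.27 within pools. The groups did not overlap for either sum. The chromosome 6 cluster had 0.932, 0.977 and 0.884 times the counts of the chromosome 4 cluster in control pools A, B and C, and 3.05, 2.97 and 3.74 times in the beads-depleted pools. Because these are ratios within a library, they do not depend on the library size.

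miR-200c-3p did not account for the whole of this shift. miR-141-3p alone had 0.889 ± 0.0666 times the counts of the chromosome 4 cluster in control and 1.73 ± 0.128 times in beads-depleted libraries (SD, n = 3). Within the chromosome 4 cluster the proportions overlapped between groups, with miR-200a-3p at 0.437 ± 0.104 and 0.498 ± 0.0602 times miR-429-3p (SD, n = 3).

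**Figure D3:**
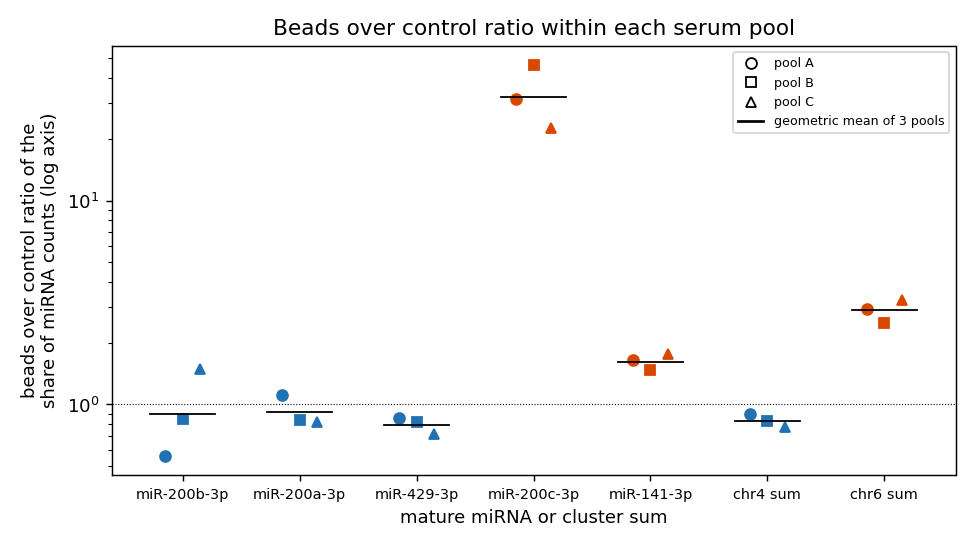
Ratio of the share of miRNA counts in the beads-depleted to that in the control library of the same serum pool (log axis), for each member and each cluster sum, with the geometric mean as a bar and a ratio of 1 dotted. Ratios lie between 22.8 and 46.1 for miR-200c-3p, between 1.48 and 1.77 for miR-141-3p and below 1 in all 3 pools for miR-429-3p, whose ratio was 7.99 relative to all annotated counts.

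The same counts were grouped by seed. Members with the seed AAUACUG (miR-200b, miR-429 and miR-200c) had 0.647 ± 0.0987 times the counts of those with AACACUG (miR-200a and miR-141) in control and 1.07 ± 0.116 times in beads-depleted libraries (SD, n = 3). Without miR-200c-3p these ratios were 0.610 ± 0.0827 and 0.335 ± 0.0240 (SD, n = 3), in the opposite direction. The division by seed therefore turned on a single member, whereas miR-200c-3p and miR-141-3p, which do not share a seed, were both higher. The family as a whole rose in share from 733.3 ± 44.7 to 1339 ± 51.3 CPM (SD, n = 3), and without miR-200c-3p it was 717.4 ± 49.6 and 863.2 ± 20.6 CPM (SD, n = 3).

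For the background, all miRNAs were compared between beads-depleted and control libraries in edgeR's quasi-likelihood test. Of 307 miRNAs tested, 26.7% had an adjusted p below 0.05 in either direction and 16.6% were higher after depletion. miR-200c-3p and miR-141-3p, 2 of the 5 members, were among these, which repeats the values by which the family was known. The log2 fold change was 4.96 ± 0.25 SE for miR-200c-3p, the second-largest rise of all tested miRNAs, and 0.69 ± 0.13 SE for miR-141-3p. For miR-429-3p, miR-200a-3p and miR-200b-3p it was -0.32 ± 0.15, -0.17 ± 0.20 and -0.18 ± 0.49 SE. By the share of miRNA counts, 22.8% of the tested miRNAs were higher in every beads-depleted than in every control library and 16.0% were lower, and the chromosome 6 members and miR-429-3p were in these respective sets.

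The median ratio of the 5 members was 0.909, beside 1.02 for all tested miRNAs, with quartiles at 0.857 and 1.31. A ratio above 10 was found for 8 of 306 tested miRNAs with a control count, miR-200c-3p included. All 5 members passed the filter on low counts for beads. miR-200c-3p and miR-200b-3p had at most 7 counts in any control library, and 12 and 14 in the control group. Both passed only with the counts of the beads-depleted libraries, where miR-200c-3p is high. The call and rank of miR-200c-3p are therefore no separate support for its rise.

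**Figure D4:**
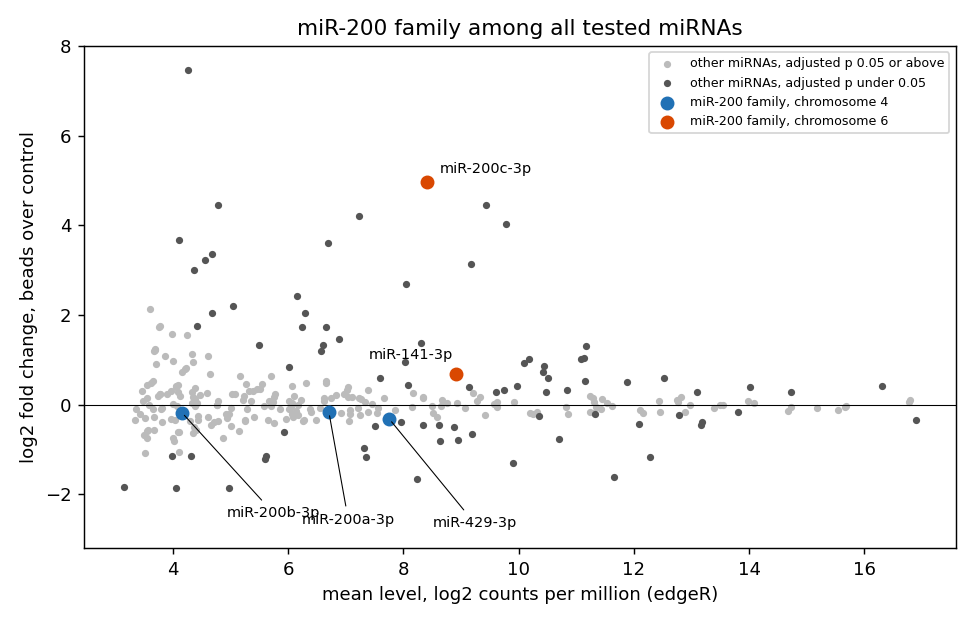
log2 fold change of beads over control against the mean level in log2 CPM for the 307 miRNAs tested with edgeR, with the 5 family members enlarged. miR-200c-3p lies at 4.96 and miR-141-3p at 0.69, and the chromosome 4 members lie between -0.32 and -0.17, within the bulk of the tested miRNAs.

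The miRNAs with the most similar profile over the 6 control and beads-depleted libraries were found by the distance of centred log2 levels to 302 tested miRNAs outside the family. The files do not pair other identifiers with names. The closest to miR-200c-3p was MIMAT0000162 at a distance of 0.788, with mean counts of 12.7 in control and 2023 in beads-depleted libraries. The closest to miR-141-3p was MIMAT0000580 at 0.211 (36.3 and 399.7 counts). The closest to miR-429-3p was miR-16-5p at 0.161, whose ratio was 0.786 to 0.788 in every pool. The libraries compared share the depth difference between the groups.

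In RNase H-depleted libraries the family had 5 counts in all among 5216 miRNA counts. Pool A held 1 count of miR-200a-3p, 2 of miR-429-3p and 1 of miR-200c-3p, pool C held 1 count of miR-200c-3p, and pool B held none. miR-141-3p and miR-200b-3p had 0 counts in every RNase H-depleted library. With 3 counts as the limit, this allows a level of up to 575.2 CPM over the group (707.2 by an exact Poisson 95% interval). Both limits lie above the 342.9 and 17.8 CPM of the summed control counts of these members. Their absence is therefore not distinguishable from their control level at this depth. The same holds for the cluster sums, with 3 counts for chromosome 4 and 2 for chromosome 6, whose ratios to control were 1.504 (exact 95% counting interval 0.308 to 4.44) and 1.07 (0.129 to 3.90).

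Among the members, only miR-200c-3p had a counting interval of its ratio to control that lay above 1. This is a description and not a test, as the family was chosen with these counts known. Its 2 counts correspond to 383.4 CPM (exact Poisson 95% interval 46.4 to 1385), beside 15.3 CPM in the summed control counts, a ratio of 25.1 with a counting interval of 2.73 to 112.6. At the control share 0.0831 counts would be found in the RNase H-depleted libraries, and at the beads share 2.48. For miR-141-3p, its partner in the cluster, these were 1.76 and 2.85, where 0 were counted. So few counts cannot show whether RNase H-depleted libraries resemble the beads-depleted ones. The interval for miR-200c-3p covers counting error only and not the spread between libraries, and its ratio rests on 1 read in each of 2 libraries. Both depletions share the control libraries, so the low control counts of miR-200c-3p enter both ratios. In the edgeR fit of RNase H-depleted against control libraries, 3 members were among the 138 miRNAs tested, miR-200a-3p, miR-429-3p and miR-141-3p, and none had an adjusted p below 0.05, where 11.6% of all tested miRNAs did. With DESeq2, which called 11.6% of its 207 tested miRNAs higher after RNase H, miR-200c-3p was among those. edgeR did not call it higher where it was tested. Without the filter on low counts edgeR tested all 5 members, and with all 9 libraries in 1 fit it tested 4, miR-200c-3p included, and neither fit called a member for RNase H. The DESeq2 call rests on the same 2 reads.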

How the data were processed

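Small RNA libraries (TruSeq, 15 PCR cycles) of 9 serum RNA fractions were analysed. The deposited values are raw counts, which the authors made by trimming with Cutadapt (1.8.1), mapping to GRCm38 with Bowtie (1.1.2) without mismatches, and matching positions to miRBase. Reads with an error or an untemplated end are not counted.

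The members and lists were chosen with earlier results of these data known. Member levels are counts divided by the miRNA counts of the library. Single shares carry Wilson 95% intervals, and 3 counts were taken as the limit that 0 allows. All miRNAs were tested per depletion with edgeR 4.0.16 in R 4.3.3 (TMM, filterByExpr, quasi-likelihood test, Benjamini-Hochberg adjustment, threshold 0.05), after the fit had been tested on simulated counts. Each SE was obtained from the log2 fold change and its F statistic. DESeq2 1.42.0 and the alternatives given at the end were also run. Replicate libraries differed beyond sampling noise. The chi-square per degree of freedom was 1.37 to 4.27 between control, 12.3 to 20.5 between beads-depleted and 2.70 to 6.66 between RNase H-depleted libraries. Serum pools pair the libraries by their labels, and deviations from the group means correlated with r of 0.033 to 0.161 between beads-depleted and control libraries of a pool, and of -0.093 to 0.061 for RNase H.

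Named miRNAs were the 5 members and, per member, the miRNAs with the smallest Euclidean distance of centred log2 CPM (prior count 2), of which the closest are given. Opposite strands and lists of epithelial, mesenchymal and blood miRNAs had been planned and are not analysed here, because the files give identifiers without names.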

Additional observations from a re-analysis of the deposited data

How the results depend on the processing

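Folds of the members and clusters stayed within the replicate spread with TMM scaling, with the 10 most abundant miRNAs left out of the denominator, without any single library, and with the pool as a replicate block (0.894 for miR-200b-3p, 0.918 for miR-200a-3p, 0.795 for miR-429-3p, 32.1 for miR-200c-3p and 1.62 for miR-141-3p). With all annotated counts as denominator, tRNA included, they were 9.04 for miR-200b-3p, 9.03 for miR-200a-3p, 7.99 for miR-429-3p, 295.4 for miR-200c-3p and 16.1 for miR-141-3p, and 8.35 and 28.6 for the chromosome 4 and 6 clusters. This denominator raised the median log2 fold change of all tested miRNAs to 3.37. The cluster ratios within libraries, 0.931 in control and 3.25 in beads-depleted libraries, do not involve it.

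Of 307 miRNAs tested, 82 were called for beads and 91 with the replicate block. DESeq2 called 82 of 468, the fit without the filter on low counts 75 of 875, and the fit of all 9 libraries 63 of 196. For beads, miR-200c-3p and miR-141-3p were among the calls in every alternative. No other member was, except with all annotated counts as library size, where all 332 tested miRNAs and thus all 5 members were called. These calls repeat the values by which the family was known and are not a test of it. Without a single library, 66 to 76 were called for beads, where 213 to 366 were tested. For RNase H, 16 of 138 were called and 12 of 138 with the replicate block. DESeq2 called 32 of 207. With all annotated counts as library size, 51 of 143 were called, 47 lower and 4 higher after RNase H. miR-141-3p, with 0 counts after RNase H, was among the 47 lower, so this fall is not particular to it. Leaving out a library gave 4 to 14 calls. The low end came without control pool B or C (4 each) or A (6), when filterByExpr left 33 or 34 miRNAs to test and no member among them, and 9 were called without RNase H pool C. The 1199 to 2040 miRNA counts of these libraries limit every RNase H value.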
